A study of Drosophila melanogaster with 3 samples.

Results

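Remote intergenic peaks are sites of Tinman ChIP-seq enrichment that lie between protein-coding genes and far from their transcription start sites. They were taken from the deposited dm6 list of 5508 peaks kept by the authors' irreproducible discovery rate (IDR) analysis of the replicates. A peak was included if its summit, the position of highest signal, lay in no protein-coding transcript and more than 5000 bp from the nearest protein-coding transcription start site (TSS). This applied to 437 of the 5508 peaks, or 7.93% (95% Wilson interval 7.25 to 8.68%). The 3 peaks just inside the distance limit had their nearest TSS 5031, 5131 and 5133 bp away, and the 3 intergenic peaks just outside it were 4997, 4960 and 4956 bp away.

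Tinman is a homeodomain transcription factor that is first made throughout the early mesoderm and is later kept in the dorsal mesoderm and the heart, and fly embryos without it form no heart. It binds a short sequence with the core AAGTG, both near promoters and at enhancers, which are stretches of regulatory DNA that can lie far from the gene they act on. Enhancers of developmental regulators in Drosophila often sit in long stretches of DNA without coding genes, while promoters, insulators and other open chromatin are also recovered in many ChIP experiments.

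The data came from whole Drosophila melanogaster embryos of 0 to 16 h, with males and females pooled, of a transgenic line that stably expresses Tinman fused at its C-terminus to GFP. Chromatin was sonicated to 200 to 800 bp and precipitated with an antibody against GFP according to the sample descriptions, although tin is entered as the antibody in another field. There was 1 group of 3 biological replicates and no second genotype, treatment or time point, and the tagged protein was the only form tested. Whole embryos mix all tissues, so strong binding in a few cells and weak binding in many cannot be told apart. The deposited lists hold scores without read counts, so the depth behind each value is unknown. Intervals on shares of peaks cover counting error only, and peaks are not replicates of the embryos.

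Summit sequences are shown first for the 6 highest-scoring remote intergenic peaks on the chromosome arms from which sequence is given here. Peaks are numbered by their score among the 437, and each window, taken from the plus strand of dm6 as given by RefSeq Release 6, runs from 50 bp before the summit to 50 bp after it. Capitals mark a match, on either strand, to one of the transcription factor motifs that are spelled out with the motif results. Peak 2 holds a Pho word, peak 4 a GATA word and a Pho word, peak 5 a Zelda word and peak 7 a Tinman word at its right edge. Peaks 3 and 6 hold no such word.
peak 2 (chr3R:29214399-29214499): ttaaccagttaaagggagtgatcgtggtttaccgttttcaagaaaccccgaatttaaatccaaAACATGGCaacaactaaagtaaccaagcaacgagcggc
peak 3 (chrX:12752312-12752412): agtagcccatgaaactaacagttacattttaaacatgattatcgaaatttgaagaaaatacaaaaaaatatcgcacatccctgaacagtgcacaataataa
peak 4 (chr2L:1638727-1638827): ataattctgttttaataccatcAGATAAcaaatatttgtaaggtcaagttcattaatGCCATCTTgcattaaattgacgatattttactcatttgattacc
peak 5 (chr3R:16798827-16798927): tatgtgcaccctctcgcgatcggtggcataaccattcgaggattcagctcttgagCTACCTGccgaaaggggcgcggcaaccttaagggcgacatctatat
peak 6 (chr2L:1632808-1632908): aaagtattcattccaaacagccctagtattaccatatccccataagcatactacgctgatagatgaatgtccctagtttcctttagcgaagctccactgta
peak 7 (chr3L:19560765-19560865): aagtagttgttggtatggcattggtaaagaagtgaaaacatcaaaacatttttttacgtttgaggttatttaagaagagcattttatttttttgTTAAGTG

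The Tinman motif was searched as TCAAGTG or TTAAGTG, and the next 3 windows belong to the highest-scoring remote intergenic peaks after peak 7 with such a word. Peak 11 lies next to chinmo, peak 15 between NijA and CG43245, and peak 37 between CG13896 and hng3. In peaks 11 and 37 the word reads CACTTGA on the printed strand, which is TCAAGTG on the other strand, and in peak 15 it reads TTAAGTG. Peak 11 also holds a Twist E-box and a homeodomain word, both in capitals.
peak 11 (chr2L:1643433-1643533): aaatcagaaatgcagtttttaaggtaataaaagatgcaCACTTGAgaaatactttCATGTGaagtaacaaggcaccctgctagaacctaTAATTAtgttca
peak 15 (chr3L:10739940-10740040): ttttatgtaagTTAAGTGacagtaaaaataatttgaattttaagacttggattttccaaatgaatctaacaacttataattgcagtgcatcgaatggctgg
peak 37 (chr3L:725948-726048): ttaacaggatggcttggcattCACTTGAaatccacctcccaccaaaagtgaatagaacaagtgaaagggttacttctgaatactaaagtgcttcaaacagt

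The CTCF motif, searched as AGNNGGCGC, was the motif that passed the test described further on, and its 4 highest-scoring windows on the arms from which sequence is given were chosen for display after that result was seen. Peak 8, between soti and cv-c, holds 3 CTCF words in its window, and peaks 18, 32 and 55 hold 1 each. The other capitals are a Twist E-box and a homeodomain word in peak 18 and a GATA word in peak 55.
peak 8 (chr3R:14391370-14391470): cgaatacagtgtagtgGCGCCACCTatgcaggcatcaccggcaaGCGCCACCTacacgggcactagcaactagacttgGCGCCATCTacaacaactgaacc
peak 18 (chr2L:14502725-14502825): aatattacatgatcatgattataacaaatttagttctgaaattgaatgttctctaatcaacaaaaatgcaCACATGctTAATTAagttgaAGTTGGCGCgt
peak 32 (chrX:20760528-20760628): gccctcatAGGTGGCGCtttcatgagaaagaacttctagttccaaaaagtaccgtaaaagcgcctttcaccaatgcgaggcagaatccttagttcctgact
peak 55 (chr3R:4970802-4970902): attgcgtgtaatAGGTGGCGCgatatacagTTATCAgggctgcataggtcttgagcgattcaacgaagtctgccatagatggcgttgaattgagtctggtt

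The nearest protein-coding TSS lay at a median distance of 10591 bp from the summit of a remote intergenic peak, with quartiles of 7709 and 15605 bp. The most distant peak, 419 in order of score, was 72149 bp from the TSS of Cyp12e1, in the gap between that gene and hth, but only 623 bp from the body of hth. Distance to a TSS is not distance to a gene, and 29 peaks (6.64%) were within 1000 bp of a coding gene's body. Of the 437 peaks, 195 (44.6%) lay within 10000 bp of a TSS, 177 (40.5%) between 10000 and 20000 bp, 55 (12.6%) between 20000 and 40000 bp, and 10 (2.29%) beyond 40000 bp. The 2 genes on either side of a peak were a median of 30008 bp apart and at most 138193 bp apart, the widest gap being that between Or67d and CG12362. The word intergenic refers to protein-coding genes here, because 64 of the peaks (14.6%) lay inside an annotated noncoding RNA, beside 4.97% of all IDR peaks and 11.5% of remote pooled entries outside the IDR list (difference from the latter 3.17 points, 95% Newcombe interval -0.069 to 6.96).

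Remote intergenic DNA, defined in the same way, makes up 26 Mb of the 134 Mb of the 6 arms, or 19.4%. It held 16.8 remote intergenic peaks per Mb, against 47 other IDR peaks per Mb of the remaining DNA. Arm 3L held 143 of the 437 peaks (32.7%), 2L held 97, 3R 91, X 57, 2R 47 and chromosome 4 held 2. Per Mb of remote DNA, 2L (21.2), 3L (20.9) and 3R (18.4) were above X (13.9), chromosome 4 (10.8) and 2R (8.78). The same order of 2L, 3L and 3R above the others held for all remote entries of the pooled list, with 159, 152 and 132 per Mb against 123 on X, 75.8 on 2R and 75.3 on chromosome 4.

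The pooled list, made by the authors from all replicates, holds 30000 entries, of which 18.4% are IDR peaks. Of its 3348 remote intergenic entries, 437 were IDR peaks (13.1%, 95% Wilson interval 12 to 14.2%), against 19% of all other entries. The difference was -5.97 percentage points (95% Newcombe interval -7.17 to -4.7). Remote intergenic entries passed less often than intergenic entries within 5000 bp of a TSS (15%; difference -1.96 points, -3.63 to -0.291) and than promoter entries within 500 bp of one (32%; -18.9 points, -20.4 to -17.4). Against intronic entries more than 5000 bp from a TSS, of which 12.1% passed, the difference was 0.905 points with an interval of -0.531 to 2.37 that includes 0. The IDR list consisted of the highest pooled scores, since no other pooled entry reached its lowest score of 147, so passing meant a high pooled score. Within the remote class, 12.9% passed at 5000 to 10000 bp, 14.4% at 10000 to 20000 bp, 10.9% at 20000 to 40000 bp and 9.9% beyond that, with overlapping intervals.

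**Figure D1:**
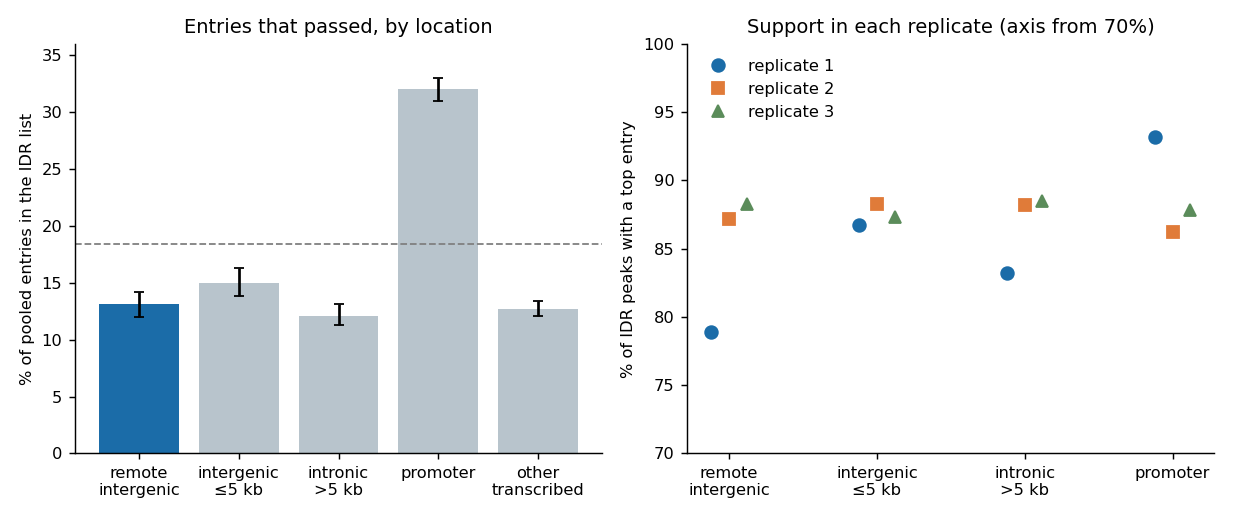
Left, percentage of pooled entries of each location that are IDR peaks, with 95% Wilson intervals and the 18.4% of all entries as a dashed line; the remote intergenic bar stands at 13.1% and the promoter bar at 32%. Right, percentage of IDR peaks of a location that overlap one of the 5508 highest-scoring entries of each replicate, on an axis that starts at 70%; replicate 1 is the lowest point for remote intergenic peaks (78.9%) and the highest for promoter peaks (93.2%).

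Scores are the peak caller's signal values as the authors deposited them. Remote intergenic peaks had scores of 147 to 2314 with a median of 222, beside medians of 245 for intergenic peaks within 5000 bp of a TSS, 226 for intronic peaks more than 5000 bp from a TSS and 269 for promoter peaks. With the IDR list cut by rank into 5 equal parts, they made up 5.63, 6.18, 7.99, 10.1 and 9.8% of the peaks from the highest part to the lowest. There were 3 among the 100 highest IDR peaks, 24 among the 500 highest and 56 among the 1000 highest, and 59.5% ranked below the median of the list. The probability that a remote intergenic peak outscored another IDR peak, where 0.5 means no difference, was 0.387 in replicate 1, 0.465 in replicate 2 and 0.422 in replicate 3 (mean 0.425 ± 0.039 SD, n = 3). All 3 values were below 0.5, and the exact sign-flip permutation test, two-sided, gave p = 0.25, the smallest value that 3 replicates allow. Against intronic peaks more than 5000 bp from a TSS the 3 values were 0.485, 0.501 and 0.482, on both sides of 0.5 (exact sign-flip permutation p = 0.5).

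Of the 437 remote intergenic peaks, 430 overlapped an entry of all 3 replicate lists. These lists hold 30000, 30000 and 24711 entries for replicates 1, 2 and 3 and are the input of the IDR analysis. An overlap anywhere in them is therefore a weak measure of support. The share with an entry anywhere in a replicate's list differed from that of the other IDR peaks by a mean of -0.163 points over the 3 replicates. A stricter measure counted overlap by at least 1 bp with the 5508 highest-scoring entries of a replicate, called top entries here. A top entry was found for 78.9% of remote intergenic peaks in replicate 1, 87.2% in replicate 2 and 88.3% in replicate 3 (84.8 ± 5.12% SD, n = 3), against 89.8, 87.1 and 88.4% of the other IDR peaks. The mean difference was -3.62 points (exact sign-flip permutation p = 0.5), and it rested on replicate 1, without which it was -0.00632 points. All 3 replicates had a top entry at 288 of the 437 peaks (65.9%), against 72.5% of all IDR peaks and 73.1% of the other IDR peaks. The difference from the latter was -7.22 points (95% Newcombe interval -11.9 to -2.75), and from promoter peaks (74.5%) -8.58 points (-13.4 to -3.98). From intergenic peaks within 5000 bp of a TSS (70.5%) it was -4.6 points (-10.6 to 1.38). From intronic peaks more than 5000 bp from one (69.4%) it was -3.45 points (-9.2 to 2.24). The last 2 intervals include 0. Most of the remaining remote intergenic peaks had a top entry in 2 replicates, 46 had one in a single replicate and 2 had none.

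Of the highest-scoring peaks, peak 1 lay between Su(z)2, which encodes a Polycomb group protein, and CG13323, on 2R from 13035119 to 13035554. Its pooled score was 2314, rank 19 of all IDR peaks, with scores of 793, 811 and 728 and ranks of 21, 16 and 26 in replicates 1, 2 and 3. Peaks 12 and 14 lay next to Psc, the Polycomb group paralogue of Su(z)2, on the other side of that locus, with scores of 826 and 801. They overlap each other and share the same replicate entries, at ranks 371, 299 and 296, so they are not separate measurements. In all, 30 remote intergenic peaks (6.86%) overlapped another IDR peak, against 11.4% of all IDR peaks.

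Peak 2 scored 2110 (rank 28) and had scores of 718, 731 and 674 in the 3 replicates. Its nearest coding TSS, 5723 bp away, is that of eEF1gamma, a subunit of a translation elongation factor complex, but the TSS of the noncoding RNA lncRNA:CR31044 lay only 113 bp from its summit. Peak 3 scored 1744 (rank 52), lay on X between CG4004 and Paics, an enzyme of purine synthesis, and had ranks of 54, 54 and 53 in the 3 replicates. These first 3 peaks ranked between 16 and 54 in every replicate, and the 3 replicates placed them in the same order.

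Peaks 4, 6 and 11 lay in one gap of 37097 bp upstream of chinmo, a zinc finger transcription factor that sets temporal identity in neurons. Their scores were 1205, 1067 and 829.5. Peak 4 had ranks of 132, 198 and 71, peak 6 of 155, 169 and 203, and peak 11 of 318, 332 and 301. The order of peaks 4 and 6 was not the same in every replicate, while peak 11 was the lowest of the 3 in each. Together with 4 weaker peaks with scores of 184 to 271 they formed a run of 7 peaks over 22455 bp.

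Peak 5 lay 8337 bp from abd-A, the Hox gene that specifies abdominal segments and, in the cardiac tube, the posterior heart proper. It scored 1204 (rank 120), with scores of 476, 363 and 363 and ranks of 93, 134 and 163. The same gap between Glut3 and abd-A held peaks 183 and 351, which scored 246 and 171. The window of peak 5 was GC-rich for a remote intergenic peak, at 54.5% GC.

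Peak 7 lay between CG9300 and Shal, a voltage-gated potassium channel, and scored 1052 with ranks of 197, 143 and 204. Peak 8 lay 263 bp from the body of cv-c, which encodes a RhoGAP, and scored 1050, with ranks of 97 in replicate 1, 222 in replicate 2 and 294 in replicate 3. Peak 10, between dati and lgs on chromosome 4, showed a like spread, at ranks 111, 339 and 323. For peaks 8 and 10, and for peak 9 near CG10651 at ranks 127, 196 and 256, replicate 1 was the highest of the 3.

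Further nearest-TSS genes among the first 25 peaks were CG13896 (peak 13), CG43245 (peaks 15 and 19), CG44362 (peak 16), CG7560 (peak 17), noc (peak 18), Ids (peak 20), tal-1A (peak 21), CG11550 (peak 22), Cyp4d21 (peak 24) and slbo (peak 25). Among them, noc encodes a zinc finger protein of limb and tracheal development, tal-1A a small peptide of the tarsal-less transcript and slbo the C/EBP factor of border cell migration. Peak 20 also lay 6079 bp from sty, the Sprouty antagonist of EGF and FGF receptor signalling. Scores of these sites ran from 816 at peak 13 to 663 at peak 25. Their ranks stayed between 260 and 655 in all 3 replicates. Across all 437 peaks, 182 had a gene known only by a CG number as the nearest TSS.

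**Figure D2:**
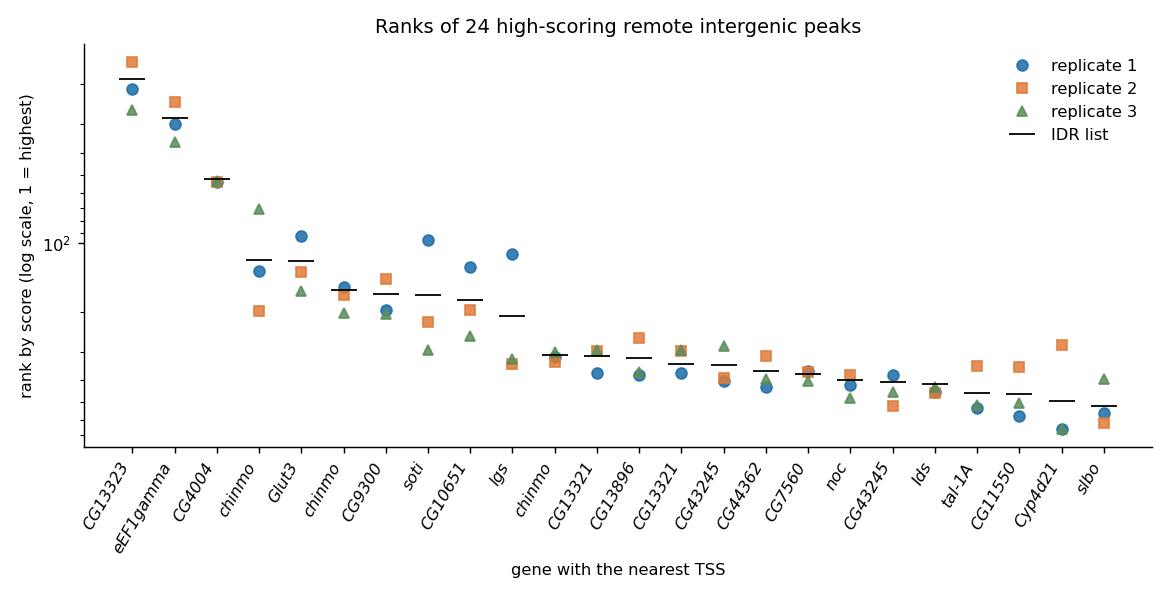
Ranks of 24 of the 25 highest-scoring remote intergenic peaks in the IDR list (black bars) and in each replicate's own list (coloured symbols), on a log axis with rank 1 at the top, each labelled by the gene with the nearest TSS. The first 3 peaks stand above the rest in all 3 replicates, at ranks 16 to 54.

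Many remote intergenic peaks lay close to one another. With summits up to 10000 bp apart joined into a run, the 437 peaks formed 256 runs, and 265 peaks (60.6%) belonged to the 84 runs of at least 2. Overlapping peaks, such as peaks 51 and 211, were counted separately. The share in runs was not computed for other IDR peaks or pooled entries, so it cannot be called particular to these peaks. There were 20 runs of at least 4. Runs of 9 peaks lay between CG44362 and CG7560 and between CG7320 and CheA75a, and a run of 8 lay between hng3 and CG13898, all on 3L. Runs of 7 lay between RFeSP and chinmo and between NijA and CG43245, and a run of 6 between Dip-B and tal-2A. Those of 5 lay between noc and CG33648, sob and odd, and dnc and Myc. Runs of 4 lay between tup and ssp3, Wnt4 and wg, ems and Art9, and hth and CG6465. Others of 4 lay between CG13898 and Sf3b3, 18w and CG11041, and CG6168 and CG6163. The rest of this size were at CG43336 and pxb, Or67d and CG12362, and CG43402 and CG31928.

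The protein-coding genes on the left and right of each peak were then read against lists of developmental regulators. Of 13945 protein-coding genes, 412 flanked at least 1 remote intergenic peak, or 2.95%. Whether a gene can flank such a peak depends on the gap and on where the neighbouring TSSs lie, and of the 1213 genes that bordered any remote intergenic entry of the pooled list, 34% flanked an IDR peak. This second share is given beside that over all genes of a list, because lists differ in how many of their genes border such an entry. Shares are counts with Wilson intervals, and no test of a list was made.

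Of the 20 regulators of heart and dorsal mesoderm, 7 flanked a remote intergenic peak (35%, 18.1 to 56.7%), and all 7 are named although the naming rule selects 3. They were the T-box genes Doc1, Doc2, mid and H15, the LIM homeodomain gene tup, the pericardial and pair-rule zinc finger gene odd, and the zinc finger homeodomain gene zfh1. Of the 10 genes of this list that bordered a remote pooled entry, these were 70%. The pair mid and H15, which encode T-box factors of the heart, bordered 7 peaks in all. The strongest, peak 33, lay 9202 bp from mid, had a score of 597, and had scores of 189.8, 232 and 172 at ranks of 870, 404 and 871. Replicate 2 placed it higher than the other replicates did. Peak 114, between H15 and mid, scored 312 with ranks of 2664, 1572 and 2308. The remaining 5 peaks in these gaps scored 148 to 237, and peak 435, the weakest, had a top entry in 1 replicate.

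Between Doc2 and Doc1, T-box genes expressed in dorsal mesoderm and amnioserosa, 3 peaks scored 484, 394 and 243. All 3 had top entries in all 3 replicates, peak 53 at ranks of 984, 825 and 1106, peak 78 at 1970, 1172 and 1184, and peak 191 at 2948, 2790 and 3862. Next to tup, which acts in cardiac and alary muscle development, 4 peaks scored 551, 296, 256 and 157. The strongest of these, peak 43, was 8995 bp from tup and ranked 897, 647 and 861. The weakest, peak 395, holds a Tinman word in its summit window. Between sob and odd, the 5 peaks scored 483, 286, 282, 274 and 208, all with top entries in all 3 replicates. The single peak at zfh1, peak 433, scored 148 and ranked 5659, 4293 and 15034, so replicate 3 held only a weak entry there. Its gap is 422 bp wide, and its summit lay 414 bp from the body of zfh1 and 9 bp from that of wts, a kinase of the Hippo pathway.

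Of 19 gap and pair-rule genes, which pattern the early embryo along its length, 10 flanked a remote intergenic peak (52.6%, 31.7 to 72.7%), or 76.9% of the 13 that bordered a remote pooled entry. They were ems, ftz, knrl, oc, odd, opa, run, slp1, slp2 and tll. The pair-rule gene h, annotated as hry, was not matched by its symbol and is not among the 19. The gap between hry and SrpRbeta held 3 peaks, the best with a score of 377. The best peak at ems, a head gap gene, scored 457 with ranks of 1165, 1251 and 928, and 6 peaks bordered this gene. The best peak at oc, also a head gap gene, scored 437 with ranks of 1069, 1324 and 1220. The best peaks at knrl, tll, run and slp1 scored 162 to 178. The count was sensitive to replicate support and to the rule. It was 6 for peaks more than 10000 bp from a TSS, 6 with all annotated genes and 5 among the 2754 highest-scoring IDR peaks, and the count of 7 heart and dorsal mesoderm genes was 4 at 10000 bp. With members held to a top entry in both remaining replicates it was 5 without replicate 1, 6 without replicate 2 and 7 without replicate 3.

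Of the 13 GATA and T-box genes 6 flanked a peak (46.2%, 23.2 to 70.9%), or 75% of those that bordered a remote pooled entry, 4 of them being Doc1, Doc2, mid and H15 again, with bi and grn. Among 17 neural fate regulators there were 6 (35.3%, 17.3 to 58.7%), or 85.7% of the 7 that bordered a remote pooled entry, led by SoxN, a Sox factor of the neuroectoderm, with a peak of score 450.0 at ranks 1383, 1092 and 1090. The peak next to pros, a homeodomain factor of neural differentiation, lay 59256 bp away, scored 360.3 and had no entry in replicate 2. Of 18 genes for secreted signals, 5 flanked a peak (27.8%, 12.5 to 50.9%), or 50% of the 10 that bordered a remote pooled entry. The gap between Wnt4 and wg, which encode Wnt ligands, held 4 peaks, the best with a score of 383 and ranks of 2152, 1202 and 1258. The gap between pyr and ths, ligands of the mesodermal FGF receptor, held 2, with scores of 337 and 243.

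Of 15 visceral mesoderm genes 4 flanked a peak (26.7%, 10.9 to 52%), namely hth, slp1, slp2 and vn, or 50% of the 8 that bordered a remote pooled entry. The homeodomain gene hth bordered 8 peaks, all weak, with scores of 151 to 251, and the strongest of them, peak 178, holds a Tinman word of the form TCAAGTG and a GATA word. Peak 399, also at hth, had no top entry in any replicate. Of 16 somatic muscle identity factors 4 did so (25%, 10.2 to 49.5%), or 44.4% of the 9 that bordered a remote pooled entry, namely Dr, caup, mirr and tey, with best scores of 302 at Dr, 236 at tey and 217 in the gap between caup and mirr. Of 8 Hox genes, abd-A and Antp did so (25%, 7.15 to 59.1%), Antp with a best score of 295. They were 33.3% of the 6 Hox genes that bordered a remote pooled entry, close to the 34% of all genes. Among 12 gut regulators there were 3 (25%, 8.89 to 53.2%), which were Dr, drm and odd, or 60% of the 5 that bordered a remote pooled entry. Of the 11 tracheal and epidermal regulators matched by symbol only vvl, a POU factor, bordered peaks, 4 in all with a best score of 409.6. It was 20% of the 5 of these that bordered a remote pooled entry. The list entry svb, annotated as ovo, was not matched, and ovo flanked 1 peak with a score of 165.

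No haemocyte gene of 9 (upper Wilson bound 29.9%) and no cytoplasmic ribosomal protein gene of 50 (upper bound 7.13%) flanked a remote intergenic peak. Only 1 and 3 genes of these lists bordered a remote pooled entry, so they had little room for one. Of 43 immunoglobulin cell surface genes 3 did so (6.98%, 2.4 to 18.6%), or 20% of the 15 that bordered a remote pooled entry, beside the 34% of all genes. No interval was computed for this 20%, which rests on 15 genes. The best peak at these immunoglobulin genes, peak 34 at dpr17, scored 597 but ranked 243, 2655 and 759 in the 3 replicates.

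**Figure D3:**
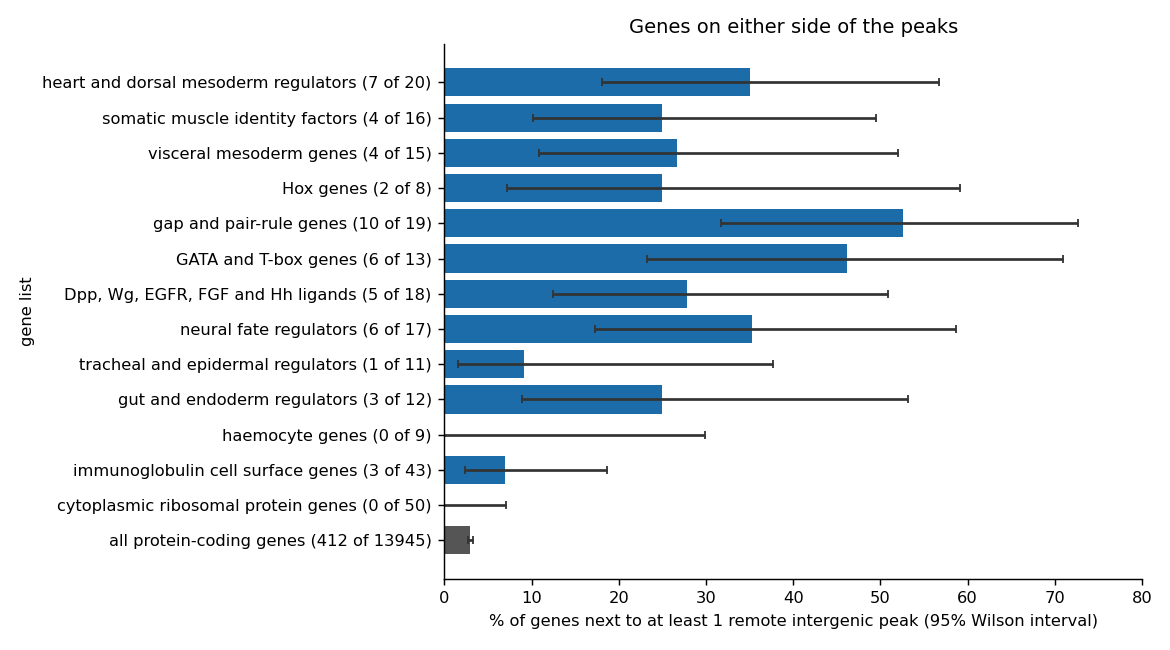
Percentage of the protein-coding genes of each list that flank at least 1 remote intergenic peak, with 95% Wilson intervals and the counts beside each list; the grey bar is the 2.95% of all protein-coding genes. The bars of gap and pair-rule genes (52.6%) and of GATA and T-box genes (46.2%) are the longest, and the lists share genes. The list entries h, svb and col matched no symbol and are not counted.

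Remote intergenic summits were AT-rich troughs in DNA of higher GC content. The window of 50 bp to each side of the summit had a mean GC content of 33.9 ± 8.01% (SD over 437 peaks), while the windows centred 500 bp to the left and right had 42.7 and 43%. The summit was lower than the mean of its flanks at 351 peaks and higher at 81, with a median difference of -9.9 points (exact sign test, two-sided, p = 3.97e-41). The trough was narrow. Mean GC content was 40 and 39.8% at 100 bp to each side and 45.9 and 45.7% at 200 bp, above the 41% of tiles of the same length over all remote intergenic DNA.

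Peaks of other locations also had a trough, with mean summit GC contents of 34.5% for intergenic peaks within 5000 bp of a TSS, 33% for intronic peaks more than 5000 bp from one and 37.1% for promoter peaks. The 2911 remote pooled entries outside the IDR list had 40.9% at the summit and 42 and 41.1% in the flanks. With all 3348 remote entries split by pooled score into 5 equal groups, mean summit GC content was 34.1, 37.4, 41.1, 43.8 and 43.6% from the highest group to the lowest. Repeat-masked bases made up 20% of the summit windows and 29.6% of the tiles, and no summit lay in an annotated transposable element. GC content can affect library amplification and mapping, and its part in the scores was not tested.

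**Figure D4:**
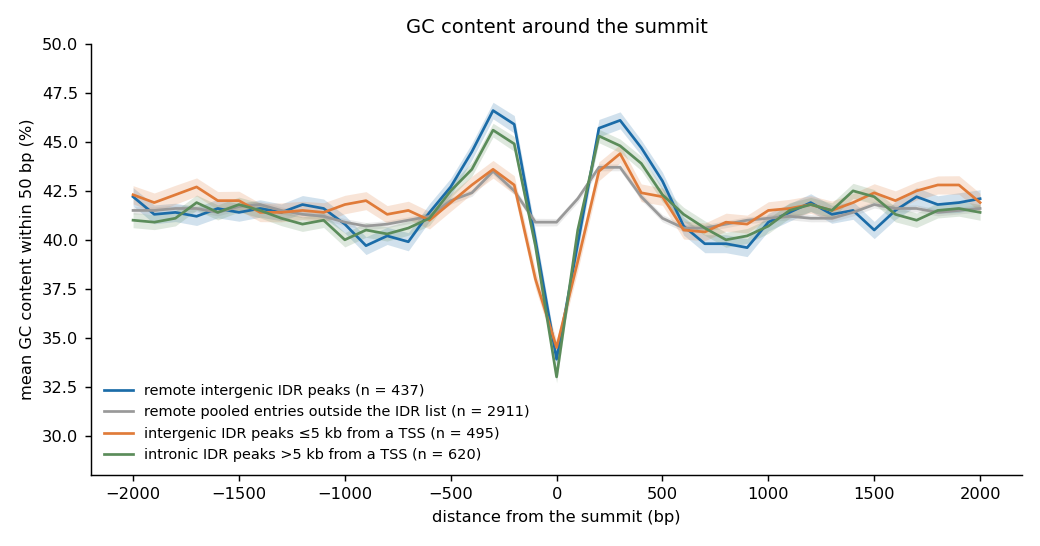
Mean GC content of windows of 50 bp to each side against distance from the summit for remote intergenic IDR peaks and 3 comparison sets, with the standard error over peaks as shading. The remote intergenic line falls to 33.9% at the summit between shoulders of about 46%. Remote pooled entries outside the IDR list dip less, to 40.9% at the summit from 43.5% at 300 bp to the left and 43.7% at 300 bp to the right.

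For sequence content, 17 motifs were searched on both strands in the summit window and in the window centred 500 bp to its left. The words were TCAAGTG or TTAAGTG for Tinman, with TCAAGTG also counted alone, TGATAA or AGATAA for GATA factors, and CATATG or CACATG for Twist. GTAAACA or GTAAATA stood for Forkhead factors, TAATTA for homeodomains, CAGGTAG for Zelda, GAGAGAG for GAGA factor, AGGTGTGA for T-box factors and GCCATNTT for Pho, the DNA-binding Polycomb group protein. TATCGATA stood for the DNA replication-related element (DRE), GGTCACACT for M1BP, AGNNGGCGC for CTCF and GCATACTT for Su(Hw), the last 2 being insulator proteins. A run of 7 A and the repeat ACACACAC were also searched, and the Mef2 motif was the ambiguous consensus of that muscle factor. The word TAATTA can lie within a Mef2 match, and words of different motifs can overlap in part. A match describes the sequence and not occupancy.

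The CTCF word was found at 17 summits (3.89%, 2.44 to 6.14%) and in 3 left flanks (0.686%), an excess of 3.2 points (95% interval 1.22 to 5.19). It was the only motif of the 17 to pass the exact McNemar test (p = 0.00258, Benjamini-Hochberg adjusted p = 0.0438). The right flanks also held 3, the tiles of remote intergenic DNA 0.595%, and the remote pooled entries outside the IDR list 1.13%. Of the 218 remote intergenic peaks with the higher scores 13 held the word (5.96%), and of the 219 with the lower scores 4 did (1.83%), a difference of 4.14 points (95% Newcombe interval 0.438 to 8.26). Mean GC content was 45.3% in windows with the word, which is itself GC-rich, and 33.4% in those without it. The call sits near the threshold. Its adjusted p was 0.632 with windows of 25 bp to each side, 0.184 with 100 bp to each side and 0.852 for peaks more than 10000 bp from a TSS. It was 0.22, 0.257 and 0.0711 without replicates 1, 2 and 3, where fewer peaks were tested. The excess itself was 2.92, 3.15 and 3.92 points without each replicate, 2.97 points with the wider windows, 2.48 points beyond 10000 bp and 0.915 points with the narrower windows. Over all alternatives run the adjusted p of the exact McNemar test ranged from 0.00266 to 0.852, and the excess from 0.915 to 6.78 points.

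Among the 17 peaks with a CTCF word, peak 8 at cv-c, peak 14 at Psc, peak 18 at noc and peak 32 near shakB had the highest scores, of 1050, 801, 737 and 608. A weak peak in the gap between Su(z)2 and CG13323, peak 393 with a score of 157, also held the word, so CTCF words occurred on both sides of the locus of Psc and Su(z)2. All 3 replicates had a top entry at 70.6% of the 17. Compared with other locations, the share of 3.89% lay beside 6.06% of intergenic peaks within 5000 bp of a TSS (difference -2.17 points, -5.02 to 0.701) and 1.94% of intronic peaks more than 5000 bp from one (1.95 points, -0.0707 to 4.35), and both intervals include 0.

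The Tinman word was found at 30 remote intergenic summits (6.86%, 4.85 to 9.63%), in 4.81% of left flanks and in 3.89% of right flanks. Summits thus exceeded left flanks by 2.06 points (95% interval -1.01 to 5.13), which did not pass the exact McNemar test (adjusted p = 0.459). The word was present in 3.7% of the tiles, in 4.98% of remote pooled entries outside the IDR list, in 4.23% of all IDR summits and in 3.28% of promoter summits. Windows were also centred at steps of 100 bp up to 2000 bp to either side of the same summits. Only those 2000 and 1500 bp to the left held the word more often than the summit, at 8.24 and 7.32%. The others held it at 2.75 to 6.64%. Remote intergenic peaks exceeded promoter peaks by 3.59 points (95% Newcombe interval 1.44 to 6.42) and all other IDR peaks by 2.86 points (0.767 to 5.67). Among the 2754 highest-scoring IDR peaks the excess over promoter peaks was 2.35 points and its interval included 0. Against intronic peaks more than 5000 bp from a TSS the difference was 0.252 points (-2.76 to 3.5), and against intergenic peaks closer to a TSS it was 2.42 points (-0.557 to 5.56), so neither was distinguishable from 0.

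Anywhere within the peak, 85 of the 437 peaks (19.5%, 16 to 23.4%) held a Tinman word, against 13.8% of all IDR peaks. The 30 peaks with a word at the summit had a median score of 238, and the word lay a median of 23 bp from the summit. The window ends 50 bp from the summit and so limits this distance. It was 21.5 bp for GATA, 32 bp for CTCF and 18.5 bp for Pho words. Among the 30 peaks with a Tinman word, 21 had a top entry in all 3 replicates. Of these 30 peaks, 16 were among the 218 with the higher scores and 14 among the 219 with the lower scores. The run between CG44362 and CG7560 held 3 of them (peaks 51, 70 and 319), and others had a developmental regulator on one side, among them peak 132 at noc (11196 bp away), peak 173 at salm (7536 bp), peak 235 at B-H2 (6273 bp), peak 337 at mirr (7404 bp) and peak 413 at SoxN (12651 bp). These examples were chosen after their values were seen.

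Motifs of promoters were rare at remote intergenic summits, and also at the other peaks away from promoters. The DRE word was found at 1 summit (0.229%) against 5.04% of promoter summits, a difference of -4.82 points (95% Newcombe interval -5.72 to -3.51). It was at 0.606% of intergenic summits within 5000 bp of a TSS and 0% of intronic summits more than 5000 bp from one. Remote pooled entries outside the IDR list held it at 0.206% and the tiles of remote DNA at 0.22%. The M1BP word was found at none of 437 (upper Wilson bound 0.871%) against 1.99% of promoter summits, a difference of -1.99 points (-2.59 to -1), which was -1.29 points with an interval that included 0 among the 2754 highest-scoring IDR peaks. The M1BP share was 0.202% at intergenic summits nearer to a TSS, 0.645% at the intronic summits and 0.0509% in tiles of remote DNA. The Mef2 motif was present at 4.81% of remote intergenic summits against 8.28% of intergenic summits nearer to a TSS, a difference of -3.48 points (-6.69 to -0.254). It turned to 0.551 points with windows of 25 bp to each side. With 100 bp to each side, at TSS distances of 3000 and 10000 bp, and among the 2754 peaks its interval included 0. So did the intervals against intronic (-1.32 points, -4.05 to 1.6) and promoter summits (-1.49 points, -3.4 to 1.08). Over all motifs and these 3 locations, 6 of 51 intervals left out 0, without correction for their number.

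Other motifs did not differ between summit and left flank past the test. GATA words were the most frequent, at 14.4% of summits and 11.7% of left flanks (adjusted p = 0.477 by the exact McNemar test), and Pho words were at 2.97% of summits and 1.37% of left flanks (adjusted p = 0.406). The repeat ACACACAC was less frequent at summits, at 0.915 against 3.43% (exact McNemar test, adjusted p = 0.163). Zelda, GAGA, Su(Hw) and T-box words were each at 1.14% of summits or fewer. Words of 6 letters were ranked by the ratio of their counts at summits and flanks, with 10 added to each count. The leading words were ATACTA, at 10.1% of summits and 2.06% of flanks, ACCTAT (7.32 and 1.26%) and AATACT (10.1 and 2.4%), all without CG pairs.

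**Figure D5:**
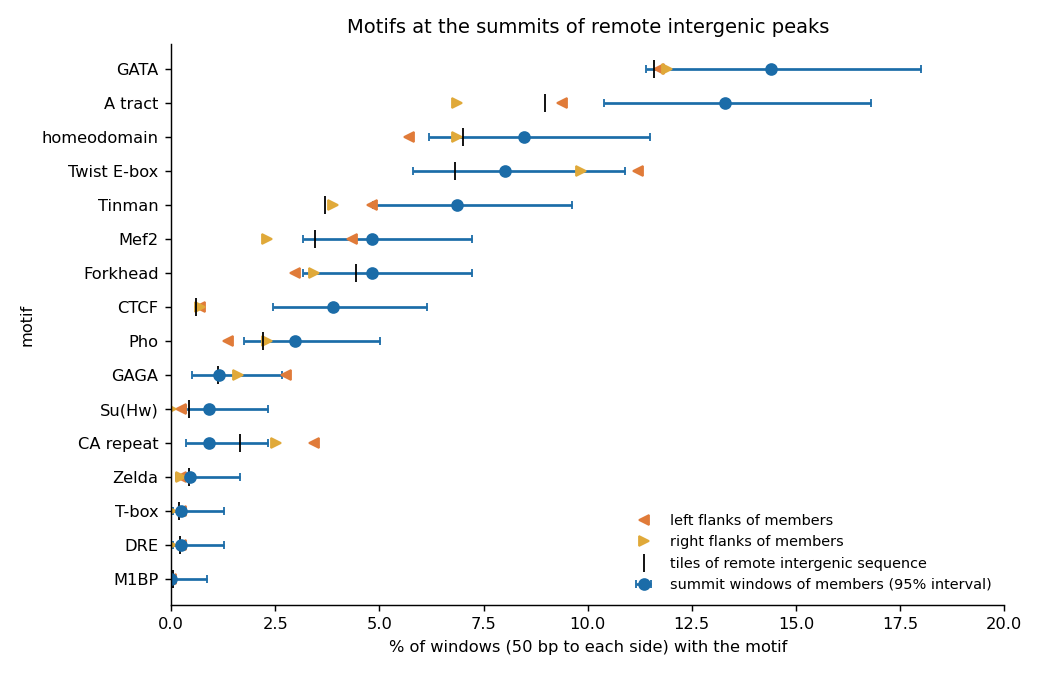
Percentage of windows of 50 bp to each side with each motif at the 437 remote intergenic summits (circles, 95% Wilson intervals), in their left and right flanks (triangles) and in tiles of all remote intergenic DNA (vertical bars). For CTCF both flanks and the tiles lie below the interval of the summits, at 0.686, 0.686 and 0.595% against 3.89%.

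Some of these peaks, though far from coding TSSs, lay at starts of noncoding RNAs. A noncoding RNA TSS lay within 500 bp of the summit at 38 of the 437 peaks (8.7%, 6.4 to 11.7%), against 4.85% of all IDR peaks. The share was above that of intronic peaks more than 5000 bp from a TSS (2.1%; difference 6.6 points, 95% Newcombe interval 3.88 to 9.74) and of remote pooled entries outside the IDR list (5.77%; 2.92 points, 0.457 to 6.04). It was below that of intergenic peaks within 5000 bp of a TSS (13.1%; -4.44 points, -8.42 to -0.393). In 31 cases the RNA was a long noncoding RNA.

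Besides peak 2 at lncRNA:CR31044, high-scoring examples were peak 3, with the TSS of lncRNA:CR44619 495 bp from its summit, and peak 30 in the gap next to tsh, 211 bp from lncRNA:CR44917. Small RNA genes accounted for several others. Peak 58 (score 470.4) lay 125 bp from snRNA:U6:96Ac, peak 196 lay 10 bp from snRNA:U1:95Ca and peak 280 lay 106 bp from snRNA:U5:63BC, all of which encode spliceosomal RNAs. Peak 172 lay 177 bp from the annotated start of mir-34 and holds a CTCF word, peak 208 lay 159 bp from snoRNA:185, and peak 437 lay 494 bp from tRNA:Phe-GAA-1-6. The rule was also applied to all annotated genes, noncoding ones included and transposable elements left out. With the summit in none of their transcripts and more than 5000 bp from their TSSs, 244 of the 437 peaks remained.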

How the data were processed

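Lists in narrowPeak format on dm6 were used, with replicate numbers from the labels. Per the notes deposited with the files, the replicate and pooled lists are the input of the IDR analysis, and the IDR list derives from them. The aligner, the peak caller with its settings, and the IDR cut-off were not given in the sources used here. Peaks were ranked by the authors' score, deposited as the signal value of each entry, whose scale is not explained. The deposited −log10 q values served as an alternative for ranking, being constant at 4.05 in the IDR list. The lists on dm3 were not used.

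Genes came from Ensembl release 115 (BDGP 6.54) and sequence from RefSeq Release 6. Python 3.11.15, numpy 2.4.6, pandas 2.3.3, scipy 1.17.1 and matplotlib 3.10.9 were used. The motif search with its McNemar test and the probability of outscoring were checked on simulated data, and the sign-flip test on fixed values. The exact sign test and the intervals were not checked in this way. Replicates were compared by the exact sign-flip permutation test, windows within a peak by the exact McNemar or sign test, and shares by Wilson and Newcombe intervals. Runs joined summits up to 10000 bp apart. The 13 gene lists and 17 motifs, like the peaks, were chosen with earlier results of these data known. Of 254 list entries, h, svb and col matched no symbol of the annotation and were left out of the counts. The annotation names h as hry and svb as ovo, and both of these flanked remote intergenic peaks. Genes named were those with the nearest TSS at the 25 highest-scoring peaks and, per list, up to 3 genes by best score, with additions said to be such in the text. A single peak of those 25 is not reported here.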

Additional observations from a re-analysis of the deposited data

How the results depend on the processing

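The 437 peaks became 242 at a TSS distance of 10000 bp, 244 with all annotated genes, 177 among the 2754 highest-scoring IDR peaks, and 306 to 342 when a top entry was required in both replicates left after omitting one. The 412 flanking genes became 227 at 10000 bp, 208 among those 2754, and 310 to 326 without a replicate. The 1 motif called became 0 with windows of 25 bp to each side, 0 with 100 bp to each side, 0 at 10000 bp, 0 without any one replicate, and 2 against the right flank (CTCF and the run of A). The Tinman difference from intronic peaks more than 5000 bp from a TSS changed sign to -1.26 points with the wider windows, -0.0351 at 3000 bp, -0.157 at 10000 bp and -1.27 among the 2754 peaks, and the Mef2 difference to 0.551 with the narrower ones. The causes were not tested. The deficit in pass rate (-6.2 to -4.38 points) and the GC trough (-10.8 to -7.71 points) kept their direction and their side of the threshold under the alternatives run for each. The score rank difference from 0.5 ranged from -0.0954 to -0.0564 without a replicate and was -0.0259 with −log10 q, and replicate support from -5.47 to -0.00632 points without a replicate. The alternatives for flanking genes and for motif shares between locations were chosen after seeing the data. No paired analysis was possible because the samples form 1 group. Without read counts, the number of weaker remote sites missed by the lists cannot be estimated.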
